A study of Mus musculus with 9 samples.

Results

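Rasa3 and 8 related genes that code for Ras GTPase-activating proteins (Rasa1, Rasa2, Rasa4, Nf1, Rasal1, Rasal2, Rasal3 and Dab2ip) were followed across mouse pancreatic tumour cells recovered from lung. The 9 genes were picked by symbol from a table of 24012 genes, and each symbol matched 1 entry. Rasa3 led the choice because its value in mCherryHigh cells lay further below that in mCherryLow cells than for any other of the 15437 genes tested. Its values in these groups are therefore a description, given with no test. The other 8 genes were taken for their family.

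Ras proteins are molecular switches that signal while they hold GTP. GTPase-activating proteins turn them off by speeding the hydrolysis of GTP, and exchange factors turn them on again. Nf1 and Rasa1 are the long-known members in epithelial and stromal cells, and loss of NF1 drives tumours in people. Rasa3 belongs to the GAP1 group with Rasa2 and Rasa4, binds the inositol phosphate IP4 and the inner face of the plasma membrane, acts on Rap1 as well as on Ras, and is best known from platelets and blood vessels.

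The cells carried GFP and a reporter named Gstt1-mCherry, and had been injected into mice through the tail vein. RNA was sequenced from 3 groups of 3 libraries each. The mCherryLow group (libraries 1, 5 and 6) and the mCherryHigh group (libraries 1, 5 and 6) were sorted by GFP and by reporter level at 6 weeks, and the DTC group (libraries 1, 2 and 3) by GFP at 5 days. All groups shared 1 genotype, which on the labels includes SIRT6F/F, p48-Cre and p53F/+, so these alleles are common to every comparison made here. The p48-Cre driver acts in the pancreatic lineage, and injection into a vein bypasses escape from a primary tumour. The labels used here do not give the age or strain of the host mice, or whether libraries of 1 group came from separate mice, so p-values measure the spread between these libraries, which may be technical.

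Values are CPM, the reads of a gene scaled to a common library size. Whole reads could be recovered from them, and library totals ran from 643748 reads (mCherryHigh 1) to 11861241 reads (mCherryLow 6), so that 3 reads, the most that a count of 0 allows, equal between 0.253 and 4.66 CPM. Gstt1, the sorted gene, lay between 11.9 and 29.4 CPM in mCherryLow, between 48.4 and 60.6 CPM in mCherryHigh and between 6.09 and 11.2 CPM in DTC. Sirt6 and Trp53, floxed on the labels, gave 3.41 to 24.9 CPM and 7.77 to 43.3 CPM over the 9 libraries; which exons are deleted is not stated, so this does not check the alleles. The summed level of 9 markers of carcinoma epithelium was 1792 to 2605 CPM in mCherryLow and 2181 to 6009 CPM in mCherryHigh. In DTC it was 5351 and 6060 CPM in libraries 1 and 2 but 448 CPM in DTC 3, which stood apart. Most of this sum came from the keratins Krt8, Krt18 and Krt19. Taken singly by mean log2(CPM + 1), 4 of the 9 lay higher and 5 lower in DTC than in mCherryHigh. Against mCherryLow 5 lay higher and 4 lower. The sum of 12 macrophage and monocyte markers, all detected in DTC, was 3945 to 8707 CPM there, against 429 to 719 CPM in mCherryLow and 311 to 759 CPM in mCherryHigh, where C1qb and C1qc were at 0. DTC 3 also had the highest sums for macrophages (8707 CPM) and T and NK cells (353 CPM). The DTC libraries have a code series of their own in the label descriptions, so code series, time and sort gate cannot be told apart.

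Promoter sequences are shown for Rasa3 and Rasal3, the members with a library at 0 reads beside others at 8 CPM or more. They are the 250 bases before the RefSeq start on build GRCm38.p6, not mm9, to which the reads were mapped. Capitals mark the letters CCAAT, or ATTGG on the other strand. The Rasa3 window is chr8:13677588-13677837, minus strand, and the Rasal3 window chr17:32403583-32403832, minus strand.
Rasa3: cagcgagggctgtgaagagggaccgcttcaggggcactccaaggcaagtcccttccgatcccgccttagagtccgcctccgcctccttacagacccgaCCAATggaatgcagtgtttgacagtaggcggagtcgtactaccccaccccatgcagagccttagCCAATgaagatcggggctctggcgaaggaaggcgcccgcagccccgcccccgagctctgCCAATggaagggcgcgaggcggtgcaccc
Rasal3: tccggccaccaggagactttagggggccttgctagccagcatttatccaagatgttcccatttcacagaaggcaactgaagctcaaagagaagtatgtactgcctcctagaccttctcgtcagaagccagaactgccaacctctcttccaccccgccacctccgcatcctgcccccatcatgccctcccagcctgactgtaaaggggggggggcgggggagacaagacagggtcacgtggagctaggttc
The Rasa3 window held 3 CCAAT matches, 18 CpG pairs and 64.4% G or C. At least 3 CCAAT matches were found in 2.79% of 32851 RefSeq promoters of this length. The Rasal3 window held 0 CCAAT matches, 6 CpG pairs, which is the median of all promoters (6), and 57.6% G or C. Of the 9 genes, 8 had a RefSeq promoter in the table. Among the others, Rasa4 had 2 CCAAT matches and Rasa1 and Nf1 had 0. A match in these letters is a description only.

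Rasa3 (ENSMUSG00000031453, chromosome 8) was abundant in 2 of the 3 mCherryLow libraries, low in all mCherryHigh libraries and present in every DTC library. It was at 249 CPM (510 reads) in mCherryLow 1, at 138 CPM (1465 reads) in mCherryLow 5 and at 5.90 CPM (70 reads) in mCherryLow 6. In mCherryHigh it was at 0 CPM in library 1 (0 of 643748 reads, which allows up to 4.66 CPM), at 5.51 CPM (54 reads) in library 5 and at 0.102 CPM (1 read) in library 6. In DTC it was at 48.7, 112 and 46.5 CPM in libraries 1, 2 and 3, from 64, 230 and 43 reads. The library mCherryLow 6 thus lay with the mCherryHigh libraries and away from its own group. Its Gstt1 (29.4 CPM) was the highest of its group and below that of every mCherryHigh library; whether its sort was as labelled cannot be told from the files, so Rasa3 differences from mCherryLow are given with and without it.

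**Figure D1:**
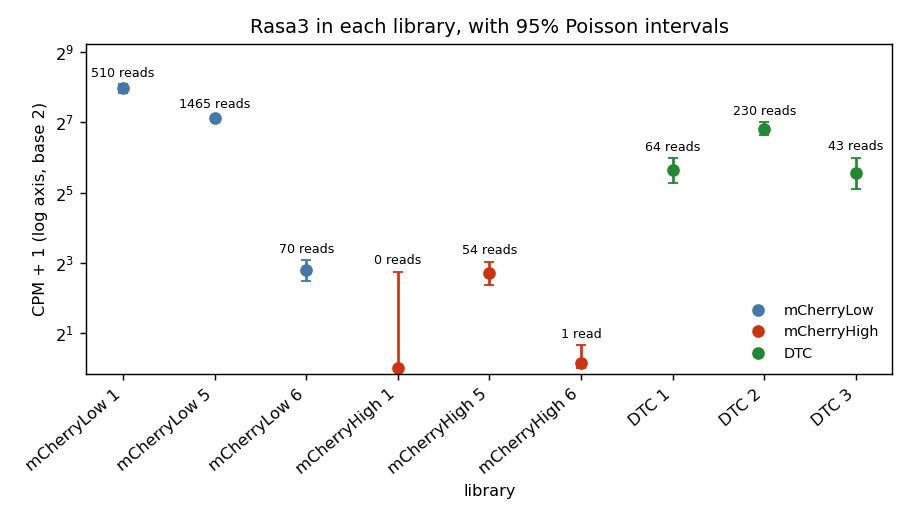
Rasa3 in each of the 9 libraries as CPM + 1 on a log axis (base 2), coloured by group, with 95% exact Poisson intervals that cover counting error only and the number of reads above each point. mCherryLow 6 (70 reads) sits at the level of mCherryHigh 5 (54 reads), while mCherryLow 1, mCherryLow 5 and the DTC libraries lie above all mCherryHigh libraries.

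Group means of Rasa3 were 131 ± 122, 1.87 ± 3.15 and 69.1 ± 37.2 CPM for mCherryLow, mCherryHigh and DTC (SD, n = 3 each). On the log2(CPM + 1) scale, on which differences are given here, mCherryHigh minus mCherryLow was -5.01, a 32.2-fold difference. The groups did not overlap, as for 5.78% of all genes tested in the lower direction, but the gap between mCherryLow 6 and mCherryHigh 5 was 0.391 CPM. The exact Poisson intervals of that pair, 4.60 to 7.46 CPM and 4.14 to 7.19 CPM, overlapped. Without mCherryLow 6 the difference was -6.59, without mCherryLow 1 it was -4.00 and without mCherryLow 5 it was -4.43.

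Within the code series of the labels the picture was split. In series 10, mCherryLow 1 (249 CPM) was at least 53.4-fold higher than mCherryHigh 1, taking 3 reads as the floor of the latter. In series 12, mCherryLow 5 was 24.96-fold higher than mCherryHigh 5, but mCherryLow 6 was only 1.07-fold higher. mCherryHigh 6, which shares its number with mCherryLow 6 but is of series 13, was at 0.102 CPM against 5.90 CPM. The exact Poisson intervals of that pair, 0.00259 to 0.570 CPM and 4.60 to 7.46 CPM, did not overlap. mCherryLow 5 and mCherryLow 6, of 1 group and 1 series, differed 23.3-fold. The ratio of the highest to the lowest mCherryLow library for Rasa3 was 42.1. Of 5209 genes that averaged 50 CPM or more in mCherryLow, 23 (0.442%) had a ratio as large, and the median ratio was 1.62. For Rasa1 the same ratio was 1.19 and for Rasal2 it was 1.38, so these members were even across the libraries in which Rasa3 was not.

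DTC minus mCherryHigh for Rasa3 was 5.06, and every DTC library lay above every mCherryHigh library. DTC minus mCherryLow was 0.05, with the groups overlapping; it was -1.53 without mCherryLow 6 and 1.06 without mCherryLow 1, and with all libraries kept it lay between -1.40 (edgeR) and 0.08 (pseudocount of 0.5), so its direction changed with single libraries and with the processing. These contrasts share libraries with the one that chose the gene. Without DTC 3, Rasa3 was 5.28 above mCherryHigh. Rasa3 is expressed in platelets, and the summed level of 9 platelet and megakaryocyte markers was 25.9 to 93.6 CPM in mCherryLow, 74.6 to 119 CPM in mCherryHigh and 59.9 to 86.6 CPM in DTC. Most of that sum in the sorted groups came from Itgb3 and Ppbp. Gp6, a collagen receptor of platelets, was at 0 in all mCherryLow and mCherryHigh libraries and at 1.52, 0.974 and 5.41 CPM in DTC 1, 2 and 3. The values in DTC 1 and 2 lie below 3 reads (2.28 and 1.46 CPM there), and the 0 in mCherryHigh 1 allows up to 4.66 CPM. Of the 7 platelet markers tested, Pf4 (1.54 ± 0.814 to 13.8 ± 8.93 CPM) and Gp1ba (0.666 ± 0.690 to 8.36 ± 3.08 CPM) rose from mCherryLow to DTC (limma adjusted p = 0.0124 and 0.0040). Treml1 (0 in each mCherryLow library and 3.84 ± 3.26 CPM in DTC) was also called. Treml1 passed the filter on low values only through the DTC libraries, so its call is no support. Gp1ba reached 1 CPM in mCherryLow 1 but not in mCherryLow 5 or 6 (1.46, 0.282 and 0.253 CPM). It too needed the DTC libraries to pass, so its call is no support either. limma thus called 3 of the 7 higher, beside 34.2% of all genes. Ppbp lay the other way, at 14.6, 20.6 and 2.67 CPM in mCherryLow, mCherryHigh and DTC. It was called lower against mCherryHigh (-2.47, limma adjusted p = 0.0224). With quantile normalization 0 of the 7 were called, and without DTC 1 Gp1ba alone was. Rasa3 is also expressed in endothelium, and the summed level of 10 endothelial markers was 30.5 to 42.0 CPM in mCherryLow, 48.0 to 54.4 CPM in mCherryHigh and 247 to 519 CPM in DTC. Of these 10, limma called 9 higher in DTC against mCherryLow and 6 against mCherryHigh, beside 34.2% and 23% of all genes. Without DTC 3, 8 of the 10 passed the filter on low values against mCherryLow and 6 were called. Calls of markers that passed only with DTC 3 are no support. With quantile normalization 6 were called against mCherryLow and 4 against mCherryHigh. The part of either cell type in the Rasa3 values was not tested. All 50-base windows of annotated Rasa3 coding transcripts were unique to the gene (100%), and no other annotated gene overlapped its exons.

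The genes whose pattern over the 9 libraries was most like that of Rasa3, of 11746 searched, were Pgam5, a mitochondrial phosphatase (r = 0.985), Msto1, a regulator of mitochondrial shape (r = 0.971), and Cox15, an enzyme of heme A synthesis (r = 0.969). Wdr4, a subunit of a tRNA methyltransferase (r = 0.968), Nmral1, a sensor of NADPH (r = 0.967), and Rrs1, a ribosome assembly factor (r = 0.965), followed. These are Pearson correlations of log2(CPM + 1), given as a description of libraries that differ in depth and group. Pgam5 was at 50.7, 46.5 and 1.43 CPM in mCherryLow 1, 5 and 6 and at 0, 3.37 and 0.205 CPM in mCherryHigh 1, 5 and 6. Nmral1 was at 31.2, 24.8 and 4.22 CPM in the same mCherryLow libraries and at 0, 7.24 and 1.12 CPM in mCherryHigh. Since the genes were chosen over these same libraries, the low place of mCherryLow 6 among them adds nothing to that of Rasa3. Cox15 lay in a narrower range, from 28.0 to 74.1 CPM. The other members of the Ras GAP family were not among these genes: their correlations with Rasa3 lay between -0.40 (Nf1) and 0.27 (Rasa4).

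**Figure D2:**
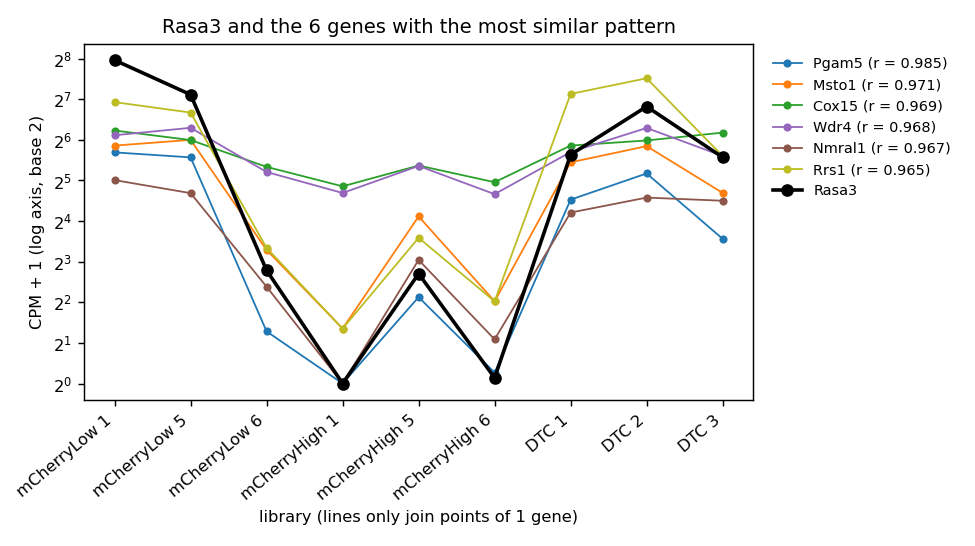
Levels of Rasa3 (black) and of the 6 genes with the highest Pearson correlation with it, as CPM + 1 on a log axis (base 2) over the 9 libraries. Rasa3, Pgam5 and Nmral1 drop to 0 CPM in mCherryHigh 1, and mCherryLow 6 lies below mCherryLow 1 and 5 for all 7 genes.

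Rasa1, the GTPase-activating protein that docks on activated receptor tyrosine kinases, varied little within each sorted group. It was at 146, 174 and 159 CPM in mCherryLow 1, 5 and 6, at 88.5, 118 and 129 CPM in mCherryHigh 1, 5 and 6, and at 70.8, 98.4 and 33.6 CPM in DTC 1, 2 and 3. All mCherryHigh and all DTC libraries lay below all mCherryLow libraries. The difference from mCherryLow to mCherryHigh was -0.52 (SE 0.24, 95% interval -1.09 to 0.04, limma adjusted p = 0.557), which did not pass the test. In DTC Rasa1 fell by 1.36 against mCherryLow (SE 0.42, limma adjusted p = 0.0219), a comparison in which the median difference of all genes was 0.59. Both edgeR (adjusted p = 0.0091) and DESeq2 (adjusted p = 0.0018) also called it. The lowest DTC value was in DTC 3, the library with the lowest sum of epithelial markers, most of which is keratin. Without DTC 3 the difference was -0.93 (limma adjusted p = 0.0532). The call was likewise lost with quantile normalization (-1.18, limma adjusted p = 0.0806) and without a mean-variance trend (limma adjusted p = 0.0503). Without DTC 1 (adjusted p = 0.0584), mCherryLow 5 (0.0551) or mCherryLow 6 (0.0519) limma did not call it either. In bulk samples, fewer cells of a type and less RNA per cell cannot be told apart.

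Rasa4, a member of the GAP1 group that moves to the membrane with calcium, was at 25.4, 13.99 and 22.1 CPM in mCherryLow 1, 5 and 6 and at 23.3, 25.3 and 23.8 CPM in mCherryHigh 1, 5 and 6. In DTC 1, 2 and 3 it was at 49.5, 59.4 and 48.7 CPM, above all 6 sorted libraries. It rose by 1.35 in DTC against mCherryLow (SE 0.43, limma adjusted p = 0.0235), which is 0.76 above the median shift of all genes. edgeR (0.85, adjusted p = 0.162) and DESeq2 (1.02, adjusted p = 0.0627) did not call it, nor did limma with quantile normalization (1.07, adjusted p = 0.0937) or median-of-ratios scaling (1.008, adjusted p = 0.0703). The call was kept without DTC 3, and lost without DTC 1 (adjusted p = 0.0846), DTC 2 (0.0765) or mCherryLow 5 (0.0734). Against mCherryHigh the difference was 1.09 (SE 0.41, 95% interval 0.19 to 1.98, limma adjusted p = 0.0635). Rasa2, its relative, was at 27.3, 28.8 and 56.5 CPM in mCherryLow, at 24.9, 58.1 and 48.6 CPM in mCherryHigh and at 32.7, 35.6 and 34.6 CPM in DTC. The groups overlapped in every comparison, and the 95% interval of mCherryHigh minus mCherryLow was -0.85 to 1.28.

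Nf1, which codes for neurofibromin, was at 27.8, 27.6 and 23.8 CPM in mCherryLow 1, 5 and 6, at 54.4, 32.1 and 58.9 CPM in mCherryHigh 1, 5 and 6 and at 46.4, 57.0 and 31.4 CPM in DTC 1, 2 and 3. Every mCherryHigh and every DTC library lay above every mCherryLow library. The differences were 0.81 for mCherryHigh (SE 0.36, 95% interval -0.03 to 1.65, limma adjusted p = 0.545) and 0.71 for DTC (SE 0.42, 95% interval -0.21 to 1.63, limma adjusted p = 0.194), and neither passed. The DTC value is 0.12 above the median shift of all genes.

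Rasal2 and Dab2ip are relatives of SynGAP and are both known as tumour suppressors in some carcinomas. Rasal2 was at 61.9, 73.1 and 85.6 CPM in mCherryLow and at 55.9, 70.9 and 93.4 CPM in mCherryHigh, so that the group means, 73.5 ± 11.8 and 73.4 ± 18.8 CPM (SD, n = 3 each), were close. The 95% interval of that difference was -0.72 to 0.67. In DTC 1, 2 and 3 it was at 123, 107 and 156 CPM, above all sorted libraries. The differences were 0.79 against mCherryLow (SE 0.35, limma adjusted p = 0.0865) and 0.81 against mCherryHigh (SE 0.37, limma adjusted p = 0.115), neither past the threshold. Dab2ip was the more variable: it was at 23.4, 4.69 and 4.38 CPM in mCherryLow 1, 5 and 6, at 41.9, 10.5 and 42.2 CPM in mCherryHigh 1, 5 and 6 and at 37.3, 36.5 and 9.74 CPM in DTC 1, 2 and 3. Within series 10 it was at 41.9 CPM in mCherryHigh 1 and 23.4 CPM in mCherryLow 1, and within series 12 at 10.5 CPM in mCherryHigh 5 against 4.69 and 4.38 CPM. The mCherryHigh minus mCherryLow difference was 1.61 (SE 0.80, 95% interval -0.24 to 3.46, limma adjusted p = 0.570), with overlapping groups.

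Rasal3, known from blood cells, and Rasal1, a calcium-responsive member, were low in both sorted groups. Rasal3 was at 0.488, 0 and 8.09 CPM in mCherryLow 1, 5 and 6, at 7.77, 7.65 and 2.35 CPM in mCherryHigh 1, 5 and 6 and at 28.2, 7.79 and 30.3 CPM in DTC 1, 2 and 3. It rose by 3.07 in DTC against mCherryLow (SE 0.86, limma adjusted p = 0.0131), although DTC 2 lay below mCherryLow 6. Of the mCherryLow libraries only library 6 reached 1 CPM. Rasal3 thus needed the DTC libraries to pass the filter on low values, so this call is no support. edgeR (adjusted p = 0.165) and DESeq2 (adjusted p = 0.0896) did not call it, nor did limma with quantile normalization (2.07, adjusted p = 0.122), without DTC 1 (2.80, adjusted p = 0.0678) or without DTC 3 (2.75, adjusted p = 0.0563). DTC 2, the DTC library with the least Rasal3, also had the lowest DTC sums of macrophage (3945 CPM), general leukocyte (694 CPM) and T and NK cell (67.2 CPM) markers. DTC 3, with the most, had the highest DTC sums, though its Rasal3 Poisson interval (20.1 to 43.8 CPM) overlapped that of DTC 1 (19.8 to 38.8 CPM). For none of these sums did all sorted libraries keep this order. For macrophages, mCherryHigh 1 had the lowest sum of all libraries (311 CPM) with the most Rasal3 of its group. For T and NK cells the order was kept in mCherryLow. In mCherryHigh, library 6 (14.4 CPM) lay above library 5 (10.7 CPM) but had less Rasal3. For general leukocytes, mCherryLow 1 had the highest sum of all libraries (2330 CPM, of which Tyrobp gave 1873 CPM) with Rasal3 at 0.488 CPM. mCherryLow 6 had a general leukocyte sum of 475 CPM with Rasal3 at 8.09 CPM. The part of leukocytes in the Rasal3 value was not tested. The 0 reads in mCherryLow 5 allow up to 0.282 CPM. Of the 50-base windows of Rasal3 transcripts 85.8% were unique, and its exons overlap another annotated gene over 635 bases on the opposite strand; whether the counting used strand is not stated, as for smaller overlaps of Rasa1, Rasa4, Rasal2 and Dab2ip. Rasal1 gave at most 6.09 CPM in any library and 22, 44 and 10 reads in all in mCherryLow, mCherryHigh and DTC, and its groups overlapped throughout.

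**Figure D3:**
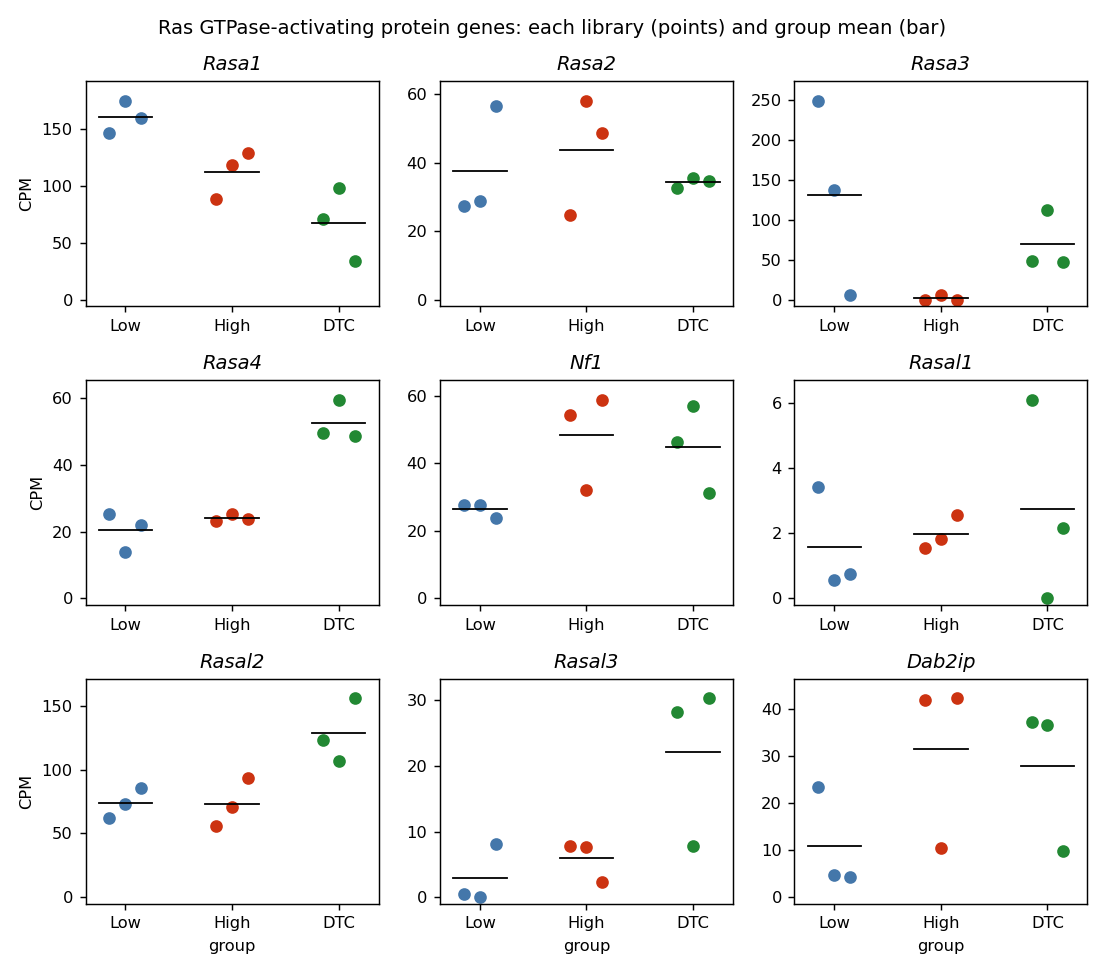
CPM of each of the 9 genes in each library (points, 3 per group: mCherryLow, mCherryHigh, DTC) with the group mean as a line, on a linear axis of its own for each gene. Rasa3 is the member with 2 mCherryLow libraries far above the third, Rasa1 descends over the groups and Rasa4 and Rasal2 are highest in DTC.

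All 8 members besides Rasa3 passed the filter on low values in each comparison. Between mCherryHigh and mCherryLow limma called 0 of the 8, as it called 0 of all 15437 genes (0%). At an unadjusted p under 0.05 limma gave 0 of the 8 and 1448 of all genes. edgeR and DESeq2 called 0 of the 8. Of all genes edgeR called 0% and DESeq2 0.959% (0.317% higher and 0.641% lower, 148 genes in all). Groups did not overlap for 2 of the 8, Nf1 higher and Rasa1 lower, against 15.9% of all genes (10.2% higher and 5.78% lower). In DTC against mCherryLow, 3 of the 8 were called (Rasa4 and Rasal3 higher, Rasa1 lower), which is 37.5%, against 43.1% of 18701 genes (34.2% higher and 8.87% lower). The family's share is thus near that of genes in general, and Rasal3 needed the DTC libraries to pass the filter. edgeR and DESeq2 called 1 of the 8 each, Rasa1, and of all genes 40.9% (24.4% higher and 16.6% lower) and 43.2% (27.5% higher and 15.7% lower). Groups did not overlap for 4 of the 8, with Rasa4, Nf1 and Rasal2 higher and Rasa1 lower, against 53.2% of all genes (39% higher and 14.2% lower). At an unadjusted p under 0.05 limma gave 4 of the 8, and 9586 of all 18701 genes. With quantile normalization 0 of the 8 were called, against 23% of all genes. Rasa4 alone was called without DTC 3, against 27.8% of all genes, Rasal3 alone without mCherryLow 5, and 0 of the 8 without DTC 1. Of all limma calls in that comparison 79.4% were higher, and 52.7% with quantile normalization. Between DTC and mCherryHigh limma called 0 of the 8, against 30.2% of 19700 genes (23% higher and 7.19% lower). There 3 of the 8 had an unadjusted p under 0.05 (Rasa4, Rasal2 and Rasal3, all higher in DTC), as had 8366 of all 19700 genes. The same 3 did not overlap between the groups, against 44.7% of all genes (31.4% higher and 13.2% lower). edgeR and DESeq2 called 0 of the 8, and of all genes 26.6% (15.9% higher and 10.8% lower) and 32% (21.3% higher and 10.7% lower). The median difference over the 8 genes was 0.31, 0.75 and -0.08 in the 3 comparisons, beside 0.09, 0.59 and 0.55 for all genes.

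**Figure D4:**
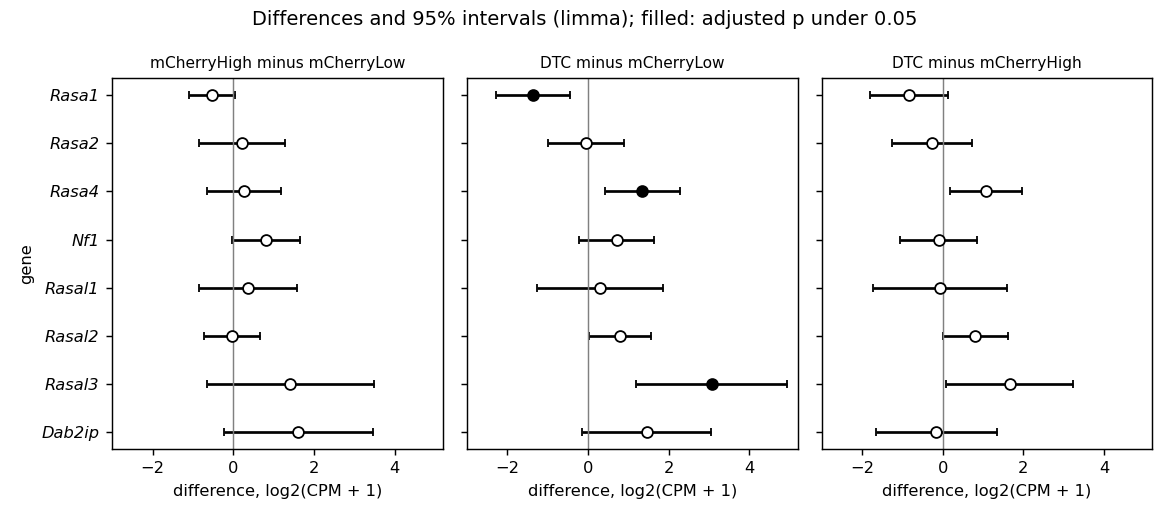
Differences of the 8 members other than Rasa3 on the log2(CPM + 1) scale with limma 95% intervals, for each pair of groups; filled points have an adjusted p under 0.05. Filled points are seen only for DTC minus mCherryLow, with Rasa1 at -1.36, Rasa4 at 1.35 and Rasal3 at 3.07.

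Levels of different genes were compared per kilobase of the longest annotated coding transcript. Rasa1 was first in mCherryLow, at 35.1 ± 3.09 CPM per kb (SD, n = 3), followed by Rasa3 at 29.7 ± 27.6, which did not differ from it beyond the spread. Rasal2 (7.32 ± 1.18), Rasa4 (7.03 ± 2.01) and Rasa2 (6.46 ± 2.83) came next and were within each other's spread, before Nf1 (2.21 ± 0.190), Dab2ip (1.68 ± 1.69), Rasal3 (0.777 ± 1.23) and Rasal1 (0.485 ± 0.490). In mCherryHigh, Rasa1 led at 24.5 ± 4.60 CPM per kb, Rasa4, Rasa2 and Rasal2 followed at 8.29 ± 0.357, 7.54 ± 2.94 and 7.31 ± 1.88, and Rasa3 was last at 0.425 ± 0.716. In DTC, Rasa4 (18.0 ± 2.05), Rasa3 (15.7 ± 8.45), Rasa1 (14.8 ± 7.13) and Rasal2 (12.8 ± 2.49) stood close together, with spreads that overlap. With the union of all exons as length, Rasa3 came first in mCherryLow and in DTC, and by the median library it came 4th in DTC.

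Summed per kilobase, the 9 genes gave 115, 89.7 and 67.1 CPM per kb in mCherryLow 1, 5 and 6, 50.9, 59.9 and 67.0 in mCherryHigh 1, 5 and 6 and 80.6, 96.7 and 69.1 in DTC 1, 2 and 3. Rasa3 made up 49.0%, 34.8% and 2.00% of the sum in mCherryLow, at most 2.09% in any mCherryHigh library, and 13.7%, 26.3% and 15.3% in DTC. Without Rasa3 the sums of the other 8 genes lay between 50.9 and 71.3 CPM per kb over the 9 libraries. The large differences between libraries in the summed level were thus those of Rasa3.

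**Figure D5:**
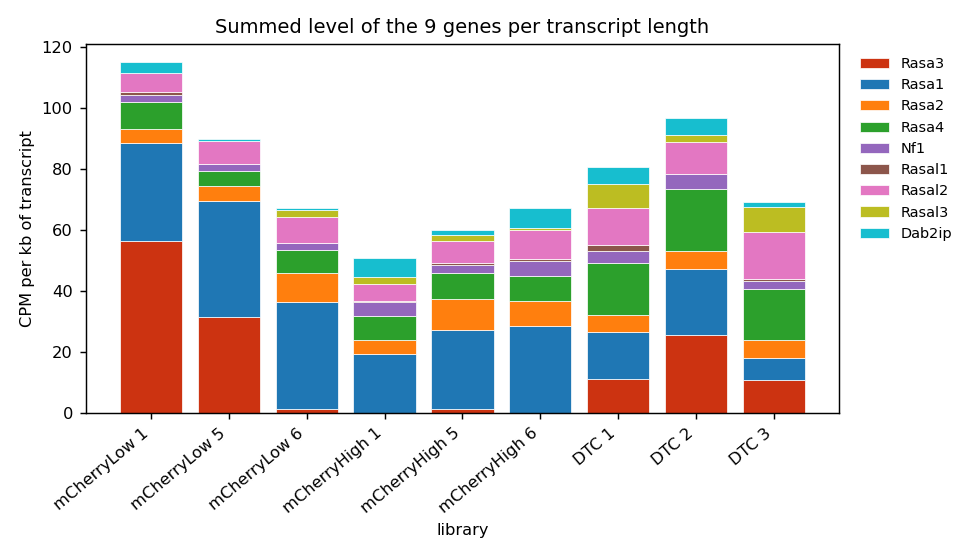
Stacked bars of the 9 genes in CPM per kilobase of transcript for each library, with Rasa3 (red) at the bottom. The tallest bar is mCherryLow 1 (115), where Rasa3 holds 49.0%, and the red part is nearly missing in mCherryLow 6 and in the mCherryHigh libraries.

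Among the Ras proteins on which these enzymes act, Nras was at 208 ± 39.1 CPM in mCherryLow, 148 ± 8.06 CPM in mCherryHigh and 257 ± 45.4 CPM in DTC (SD, n = 3 each). It lay lower in every mCherryHigh than in every mCherryLow library, with a difference of -0.47 that did not pass (limma adjusted p = 0.560). Rras2 was at 116 ± 7.04, 45.8 ± 17.3 and 59.0 ± 40.6 CPM, a difference of -1.40 for mCherryHigh (limma adjusted p = 0.444). Hras (91.0, 86.8 and 72.1 CPM) and Mras (16.4, 15.5 and 21.5 CPM) overlapped between all groups. Of the 6 Ras genes, 0 were called between mCherryHigh and mCherryLow, and in DTC 1 fell against each sorted group: Rras was at 105 ± 51.4 CPM in mCherryLow, 137 ± 25.2 CPM in mCherryHigh and 32.0 ± 8.63 CPM in DTC (-1.61, limma adjusted p = 0.0116, and -2.07, limma adjusted p = 0.0041). The Rras call against mCherryLow was lost without DTC 1. The list median was -0.10 in DTC minus mCherryLow, beside 0.59 for all genes. Of the 5 Rap genes, Rap1b, a substrate of Rasa3, fell from 661 ± 40.6 CPM in mCherryLow to 341 ± 136 CPM in DTC (-1.03, limma adjusted p = 0.0363), a call lost without DTC 3, without DTC 1 and with quantile normalization, and the other 4 were not called. Against mCherryHigh limma called 0 of the 5, while edgeR and DESeq2 each called Rap1b lower.

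Exchange factors, which oppose the GTPase-activating proteins, were higher in DTC for 6 of 16 genes against mCherryLow, with 0 lower, a share near the 34.2% of all genes called higher there. The list median was 1.00 beside 0.59 for all genes. Rasgrp1, an exchange factor of lymphocytes, went from 2.23 ± 2.14 CPM in mCherryLow to 26.7 ± 9.32 CPM in DTC (3.23, limma adjusted p = 0.0022), Rasgrp4, known from mast and myeloid cells, from 2.18 ± 1.07 to 17.7 ± 0.497 CPM (2.61, limma adjusted p = 0.0033), and Rasgrp3 from 6.46 ± 4.18 to 25.8 ± 8.68 CPM (2.00, limma adjusted p = 0.0219). These 3 kept their call without DTC 3, while Rapgef2, Rapgef3 and Rasgrf1 lost theirs. The call of Rasgrp3 was lost without DTC 1 and with edgeR and DESeq2. With quantile normalization 1 of 16 was called, Rapgef2. Against mCherryHigh 4 of 16 rose and 0 fell (Rasgrp1, Rasgrp3, Rasgrp4 and Rapgef3), a share near the 23% of all genes called higher. Rasgrp1 alone was called without DTC 1, and 0 with quantile normalization. Rapgef2 and Sos1 are named here after their values were seen. Macrophage and T and NK cell marker sums, like the endothelial one, were several times higher in DTC (3945 to 8707 and 67.2 to 353 CPM, against 429 to 719 and 9.11 to 21.1 CPM in mCherryLow), and their part in these values was not tested. Sos1, the general exchange factor, was at 47.1, 46.4 and 63.1 CPM in the 3 groups and was not called. In mCherryHigh, Rasgrf2 was at 88.4 ± 36.6 CPM against 30.3 ± 19.9 CPM in mCherryLow (1.63, limma adjusted p = 0.486), with groups that did not overlap.

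Rap GTPase-activating proteins split in DTC. Sipa1 fell from 131 ± 43.7 CPM in mCherryLow to 39.4 ± 16.2 CPM (-1.73, limma adjusted p = 0.0071), and Rap1gap2 rose from 16.4 ± 9.08 to 110 ± 22.3 CPM (2.83, limma adjusted p = 0.0013), with the other 4 of 6 not called. Both calls were kept without DTC 3, with quantile normalization and by edgeR and DESeq2. The IQGAP scaffolds, which carry a Ras GAP-related domain, were lower: Iqgap1 fell from 1133 ± 373 to 403 ± 72.2 CPM (-1.44, limma adjusted p = 0.0072), and Iqgap2 (-1.37, limma adjusted p = 0.0300) and Iqgap3 (-2.09, limma adjusted p = 0.0173) fell too, as 3 of 4 genes of their list. Without DTC 1 none of these 3 was called, and without DTC 3 Iqgap3 was not. With quantile normalization Iqgap3 alone was called. Of all genes, limma called 34.2% higher and 8.87% lower in DTC against mCherryLow, and 23% higher and 7.19% lower against mCherryHigh. The limma counts of every list given here stand beside these shares. Against mCherryHigh, Rap1gap2 rose (1.80) and Sipa1l2 fell (-1.60) among the 6 Rap GTPase-activating proteins, and Iqgap1 fell (-1.40) as 1 of 4; these calls were lost without DTC 1, and that of Iqgap1 with quantile normalization. Of 8 adaptors that carry receptor signals to Ras, such as Grb2, limma called 0 in each comparison, while edgeR and DESeq2 called 3 lower in DTC against mCherryLow (Irs2, Ptpn11 and Shc1) and 2 lower against mCherryHigh (Irs2 and Shc1).

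Downstream of Ras, Braf had the clearest pattern. It was at 41.1 ± 10.8 CPM in mCherryLow, 97.3 ± 33.5 CPM in mCherryHigh and 230 ± 55.3 CPM in DTC (SD, n = 3 each), with no overlap between any groups. It rose in DTC against mCherryLow (2.46, SE 0.37, limma adjusted p = 0.000634) and against mCherryHigh (1.27, SE 0.39, limma adjusted p = 0.0306), the latter not called by edgeR or without DTC 3. The value for mCherryHigh against mCherryLow was 1.18 (limma adjusted p = 0.486). Map2k1 (MEK1) and Mapk3 (ERK1) fell in DTC against mCherryLow, by 1.43 and 1.17 (limma adjusted p = 0.0224 and 0.0177), so that 1 of 10 kinase and scaffold genes rose and 2 fell. edgeR and DESeq2 each called 1 higher and 7 lower in that list, and with quantile normalization, or without DTC 1, Braf alone was called. Against mCherryHigh 1 of 10 rose (Braf) and 2 fell (Araf, -1.11, and Mapk3, -1.13), and without DTC 1 none was called.

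Of 9 feedback regulators that ERK signalling induces, 0 were called between mCherryHigh and mCherryLow, where 7 had positive and 2 negative values with a median of 0.48. Dusp6, the cytoplasmic ERK phosphatase, was at 182 ± 35.6 CPM in mCherryLow, 254 ± 40.9 CPM in mCherryHigh and 84.8 ± 31.7 CPM in DTC. Dusp5, its nuclear counterpart, was at 390 ± 37.8, 196 ± 164 and 83.7 ± 46.9 CPM. Against mCherryLow both fell in DTC, Dusp6 by 1.14 (limma adjusted p = 0.0277) and Dusp5 by 2.39 (limma adjusted p = 0.0017). Spry2, an inhibitor of signalling from receptor tyrosine kinases, rose from 8.69 ± 1.89 to 40.6 ± 28.2 CPM (1.90, limma adjusted p = 0.0190). Without DTC 3 the Dusp6 call was lost, and without DTC 1 or with quantile normalization those of Dusp6 and Spry2. Against mCherryHigh 1 of 9 was called, Dusp6, which fell by 1.62 (limma adjusted p = 0.0092). Spry1, Spry4, Dusp4 and the Nf1 partners Spred1, Spred2 and Spred3 were not called by limma in any comparison, and edgeR and DESeq2 called Spry4 lower in DTC against mCherryHigh. Spred1 was at 111 ± 83.5, 95.03 ± 106 and 58.2 ± 28.3 CPM in mCherryLow, mCherryHigh and DTC. Of 10 ERK output genes, Fos rose (1.05, limma adjusted p = 0.0471) and Egr1 fell (-1.17, limma adjusted p = 0.0278) in DTC against mCherryLow, and both calls were lost without DTC 3 and without DTC 1. Between the other pairs of groups 0 of the 10 were called.

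Enzymes that make or break down inositol phosphates, of which Rasa3 binds IP4, were followed as 9 genes. Itpkb, a kinase that makes IP4, rose from 2.08 ± 2.20 CPM in mCherryLow to 20.9 ± 11.1 CPM in DTC (3.02, limma adjusted p = 0.0057), Inpp5d (SHIP1), a phosphatase of blood cells, from 6.85 ± 4.39 to 71.3 ± 25.1 CPM (3.36, limma adjusted p = 0.0013), and Inpp5b fell (-1.65, limma adjusted p = 0.0127). All 3 calls were kept without DTC 3. That of Inpp5b was lost without DTC 1, and that of Itpkb with quantile normalization and edgeR. Inpp5d and Itpkb are strong in leukocytes. The sum of 7 general leukocyte markers was 266 to 2330 CPM in mCherryLow and 489 to 1339 CPM in mCherryHigh. In DTC it was 694 to 2100 CPM, so the groups overlapped. Of the 7, limma called 3 higher in DTC against mCherryLow (Laptm5, Lcp1 and Ptprc) and 0 lower. Macrophage and T and NK cell sums are given above. The part of leukocytes in the Inpp5d and Itpkb values was not tested. Inppl1 (SHIP2) was at 19.2 ± 16.3 CPM in mCherryLow, 199.8 ± 113 CPM in mCherryHigh and 33.5 ± 16.1 CPM in DTC, and its difference of 3.42 for mCherryHigh did not pass limma (adjusted p = 0.444), and 0 of the 9 genes were called in that comparison. Against mCherryHigh 2 of 9 rose in DTC (Inpp5d and Itpkb) and 1 fell (Inppl1, -2.43, limma adjusted p = 0.0105).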

How the data were processed

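RNA from sorted cells was made into libraries with a SMART-seq kit and Nextera XT, per the labels' protocols, and reads were mapped to mm9, per the submitters' processing notes; no source used here gives the aligner or counter. The authors deposited CPM values for 24012 genes in 9 columns, and 0 columns were unmatched. All values (100%) were whole multiples of 1 read within 0.01 read, so reads and totals were recovered; the table holds 98.3% to 100% of each total.

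Each comparison kept the genes that reached 1 CPM in 3 or more of its 6 libraries. Their log2(CPM + 1) values were fitted on group alone (limma 3.58.1, R 4.3.3) with an intensity trend of the variance, two-sided, with Benjamini-Hochberg adjustment over all genes and a threshold of 0.05. edgeR 4.0.16 and DESeq2 1.42.0 on recovered reads, other pseudocounts, filters, scalings, variance settings, covariates and leaving out each library were alternatives. The fit was tested on simulated data. Transcript lengths, window uniqueness and exon overlap came from GENCODE M21, a later build than mm9, so no coordinates are taken from it except the chromosome.

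The members and lists were chosen with earlier results of these data known. Named genes are the 9 members, Ras and ERK feedback genes, up to 4 genes of each pathway list with the smallest p per comparison, Gstt1 and the 6 genes correlating best with Rasa3 among those averaging 10 CPM or more in any group, leaving out predicted, ribosomal protein and sex-linked genes; 1 item is not reported here.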

Additional observations from a re-analysis of the deposited data

How the results depend on the processing

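Between mCherryHigh and mCherryLow, the number of genes called was 0 in every setting run except DESeq2 (148), and 0 of the 8 members were called in any. Same-numbered mCherryHigh and mCherryLow libraries deviated together with correlations of -0.20, -0.02 and 0.27. These were not all positive, so the numbers were not taken to pair the libraries. However, libraries 1 and libraries 5 also share a code series, and same-numbered libraries share a letter (A, E or F) in their titles. The correlations cannot exclude pairing. With the replicate block 0 genes and 0 members were called. No paired analysis was possible because DTC shares only number 1 with the other groups, for the comparisons with DTC. Rasa3 lay at -6.09 to -3.51 over the settings and at -6.59 to -4.00 when single libraries were left out. For DTC minus mCherryLow, 4300 genes were called with quantile normalization and 3628 to 7008 when single libraries were left out. The members called numbered 0 with quantile normalization, 5 with array weights (which called 9745 of all 18701 genes), 1 with edgeR and 1 with DESeq2 (Rasa1 in both), and 0 to 4 when single libraries were left out. For DTC minus mCherryHigh, 3150 genes were called with quantile normalization, 9545 with array weights and 2538 to 6997 when single libraries were left out. The members called there numbered 2 with array weights (Rasa4 and Rasal3), 1 in the fit of all 9 libraries (Rasa4) and 0 to 1 when single libraries were left out. Values of the 8 tested members that changed sign were all uncalled. Between mCherryHigh and mCherryLow these were Rasal2 with array weights (0.13) and over left-out libraries (-0.21 to 0.16) and Rasa2 over left-out libraries (-0.027 to 0.57). For DTC minus mCherryLow they were Rasal1 with quantile normalization (-1.26) and Rasa2 over left-out libraries (-0.23 to 0.28). There untested Rasa3 also changed sign, over the settings (-1.40 to 0.08) and over left-out libraries (-1.53 to 1.06). For DTC minus mCherryHigh they were Nf1 (0.025), Rasal1 (0.50) and Dab2ip (0.41) with array weights, and Rasal1 with a pseudocount of 5 (0.077) and with DESeq2 (0.24). Over left-out libraries they were Nf1 (-0.37 to 0.13), Rasal1 (-0.73 to 0.68) and Dab2ip (-0.79 to 0.45). The cause of these changes was not tested. Reading depth limits mCherryHigh 1, where 1 read is worth 1.55 CPM, and the DTC libraries, in which Rasal1 rests on 10 reads. The alternatives on pathway lists and the exon union length were chosen after seeing the data.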
